A study of Homo sapiens with 4 samples.

Results

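ISG15 and the enzymes that attach it to proteins and take it off again were followed in human fibroblasts with and without induction of FOXA2. They are 6 genes of the 63651 rows of the table: ISG15, UBA7, UBE2L6, HERC5, HERC6 and USP18, each found by its symbol in 1 row. The genes were chosen from the values of the comparison described here, so their levels and differences are a description, and no test was made on them.

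The cells were BJ-5ta, foreskin fibroblasts immortalised with telomerase, as clonal derivatives in which doxycycline switches on FOXA2. This forkhead transcription factor acts in endoderm and liver. The labels give 2 uninduced samples, which received no doxycycline, and 2 induced samples, which received 0.5 µg/ml doxycycline. Medium with serum, hygromycin B, basic fibroblast growth factor and puromycin is described for the derived lines of both groups. An overnight treatment with mimosine, which arrests cells in G1, is described without naming the cultures that received it, and the labels do not give the duration of induction. The name of the induced column carries the code 4D, which the sources used here do not explain. Whether the samples came from 1 clone or several is not stated either. Doxycycline-treated cells lacking the transgene were not analysed here, so the drug and FOXA2 cannot be told apart.

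ISG15 is a small protein built like a pair of ubiquitin units that interferon brings up in most cell types. Its conjugation, ISGylation, runs through an activating enzyme (E1, UBA7), a conjugating enzyme (E2, UBE2L6) and ligases of the HERC family (E3), and the protease USP18 removes it. USP18 also binds the interferon receptor chain IFNAR2 and limits signalling there. Free ISG15 can be secreted and act on cells that carry the integrin LFA-1.

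The table gives 1 level per gene and group in FPKM, a fragment count corrected for transcript length and for the total mapped, together with lower and upper bounds deposited by the authors. With 1 value per group there is no replicate check, and no SD, n or p-value is given. The words rose and fell are used only where the intervals of the uninduced and the induced value do not overlap. Log2 differences subtract the uninduced from the induced log2(FPKM + 1), a scale that shrinks the change of low genes. The filter asked for at least 1 FPKM in either column and left 14319 genes. The transgene's own gene rose with the labels: FOXA2 was at 4.82 FPKM (interval 0.526 to 9.12) uninduced and 104 FPKM (50.2 to 158) induced. All 8 fibroblast markers examined were kept. Of these 0 rose and 0 fell, against 0.726% and 0.454% of all kept genes. At least 2-fold higher were 2, against 9.20% of all kept genes, and at least 2-fold lower were 2, against 6.03%. The higher ones were COL3A1 (125 FPKM uninduced and 445 FPKM induced) and DCN (58.1 and 122 FPKM). The lower ones were THY1 (388 and 92.5 FPKM) and VIM (2098 and 905 FPKM). The part of the marker differences in those below was not tested.

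Of the 6 genes, 5 rose, against 0.726% of all kept genes, and 0 fell, against 0.454%. All 6 were at least 2-fold higher on the log2 scale, where 9.20% of kept genes were, and 0 were 2-fold lower, against 6.03%. All 6 were also at least 4-fold higher, where 2.03% were. Their log2 differences ran from 2.47 (UBE2L6) to 4.94 (HERC5), with a median of 3.79 beside 0.05 for all kept genes. UBA7, the E1, was the gene whose intervals overlapped. By a looser criterion, a difference whose own interval leaves out 0, UBA7 rose as well, and 1.26% of kept genes did. In RNA from whole cultures, more cells expressing a gene and more RNA per cell cannot be told apart.

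**Figure D1:**
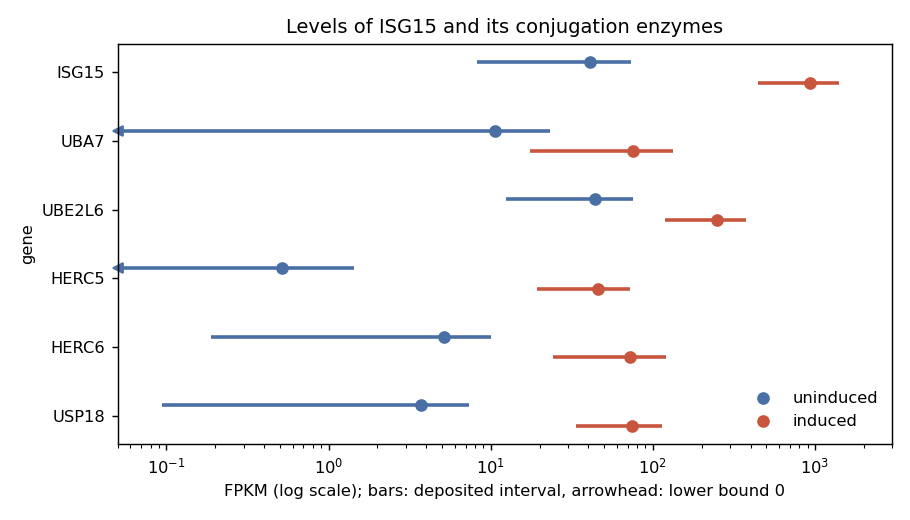
Level of each of the 6 genes in FPKM on a log axis, uninduced in blue and induced in red. Points are the deposited values, bars the deposited intervals, and an arrowhead marks a lower bound of 0. The bars of UBA7 overlap, and those of the other 5 genes stand apart.

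The modifier itself was the most abundant of the 6 after induction. ISG15 (ENSG00000187608, chromosome 1, 948803 to 949920 in hg19) was at 40.9 FPKM (interval 8.21 to 73.7) uninduced and 928 FPKM (442 to 1413) induced. It rose 22.7-fold, or 6.01-fold between the nearest bounds. In the induced column it held place 16 of the 14319 kept genes by level, against place 3139 uninduced. Its row overlaps no other row of the table and has 1 annotated start site.

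The activating enzyme UBA7 opens the chain by linking ISG15 to its own active-site cysteine. Its row (ENSG00000182179, chromosome 3, 49842640 to 49851379) gave 10.6 FPKM (0 to 23.1) uninduced and 75.5 FPKM (17.5 to 133) induced. The point values differ 7.13-fold, a log2 difference of 2.72, and the induced lower bound lies under the uninduced upper bound. UBA7 therefore did not pass the criterion, although 99.0% of kept genes had a smaller log2 difference. The row carries 11 start sites. Its upper bound lay 118% above the uninduced level, where the median was 87.5% for the 3488 genes with 10 or more start sites and at least 5 FPKM uninduced. Induced, its bound lay 76.8% above the level, near the median of 79.7% for the 2382 such genes with at least 20 FPKM induced. The part of these widths in the overlap was not tested.

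The conjugating enzyme UBE2L6 takes ISG15 over from UBA7. It (ENSG00000156587, chromosome 11, 57319129 to 57335757) rose from 43.9 FPKM (12.5 to 75.4) to 248 FPKM (119 to 377), a 5.65-fold difference and 1.58-fold between the nearest bounds. By point value this was the smallest log2 difference of the 6 genes, 2.47, and the highest uninduced level of the 6. ISG15 was close to that level uninduced, at 40.9 FPKM, and had a log2 difference of 4.47.

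Of the ligases, HERC5 is the main E3 for ISG15 in human cells, and HERC6 is its relative, which has that role in the mouse. HERC5 (ENSG00000138646, chromosome 4, 89378268 to 89427314) rose from 0.520 FPKM (0 to 1.44) to 45.6 FPKM (19.4 to 71.9). This is 87.7-fold, and 13.5-fold between the nearest bounds. Uninduced it lay below the level of 1 FPKM used for the filter, so it was kept through its induced value. HERC6 (ENSG00000138642, chromosome 4, 89299891 to 89364263) rose from 5.12 FPKM (0.189 to 10.1) to 72.7 FPKM (24.2 to 121), or 14.2-fold and 2.41-fold between the nearest bounds. By point value both ligases were below ISG15 and UBE2L6 in each column, with HERC5 the lowest of the 6 in both.

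The protease USP18 (ENSG00000184979, chromosome 22, 18632666 to 18660164) rose from 3.72 FPKM (0.0934 to 7.35) to 73.8 FPKM (33.4 to 114), 19.8-fold and 4.55-fold between the nearest bounds. Its near copy USP41, on the same chromosome, was at 0.0766 FPKM uninduced and 0.207 FPKM induced, under the filter. How reads common to both were assigned is not given in the sources used here, so the split between them is uncertain. The receptor chain that USP18 binds, IFNAR2, was at 14.1 FPKM (0 to 34.3) uninduced and 17.1 FPKM (0 to 38.7) induced, with overlapping intervals.

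**Figure D2:**
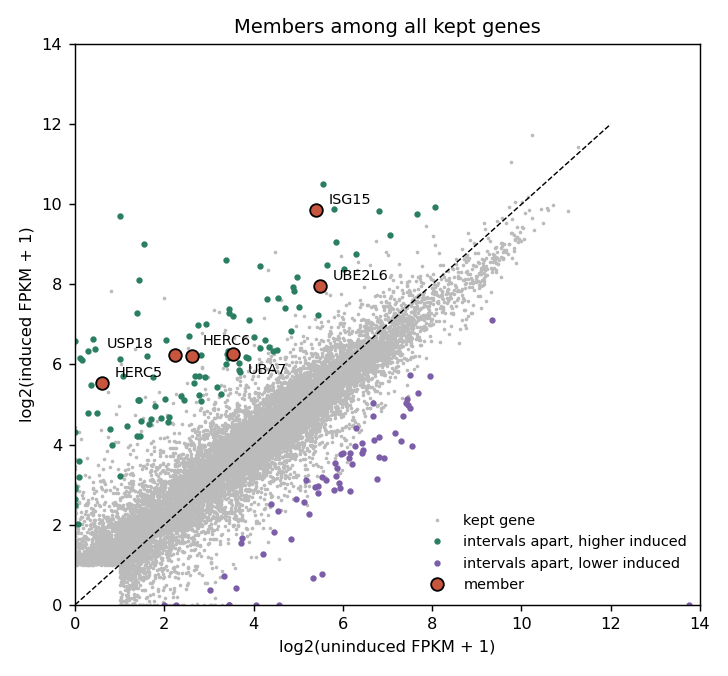
Induced against uninduced level of every kept gene, both as log2(FPKM + 1), with the dashed line marking equal levels. Red points are the 6 genes, green and purple points the genes whose intervals stand apart. All 6 lie above the line, and UBA7 is the one among them with overlapping intervals.

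The order of the levels differed between the columns. Uninduced it ran UBE2L6, ISG15, UBA7, HERC6, USP18, HERC5, and each gene's interval overlapped that of the next in this order. Of the 15 pairs, 5 had intervals apart. UBE2L6 lay above HERC6, USP18 and HERC5, and ISG15 above USP18 and HERC5. Induced, the order was ISG15, UBE2L6, UBA7, USP18, HERC6, HERC5, and 7 of 15 pairs stood apart. ISG15 then lay above every one of the 5 enzymes, and UBE2L6 above USP18 and HERC5. UBA7, USP18, HERC6 and HERC5 overlapped one another, at 75.5, 73.8, 72.7 and 45.6 FPKM.

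Levels of modifier and enzymes are set against each other here as FPKM, which is corrected for transcript length. The quantifier is not given, so other biases between genes in these ratios are unknown. ISG15 stood at 0.932 times the level of its E2 uninduced and 3.74 times induced. Against UBA7 the figure was 3.87 uninduced and 12.3 induced. Relative to USP18 it was 11.0 uninduced and 12.6 induced, and relative to HERC6 7.99 and 12.8. Against HERC5 the order was the other way, 78.7 uninduced and 20.3 induced, with the lower bound of HERC5 at 0 uninduced. The bounds do not separate the genes by size of change: for all 15 pairs the ranges of the induced to uninduced ratio allowed by the bounds overlapped.

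Since the 6 genes were higher together, the 250 bases before the annotated start were searched for 4 motifs on both strands. The RefSeq promoter table (GRCh38.p14) has entries for 4 of the 6, ISG15, HERC5, HERC6 and UBE2L6, the last with 2 start sites. It holds no entry under the symbols UBA7 and USP18. The interferon-stimulated response element, bound by a complex with STAT2 and IRF9, was searched as GAAA, any 2 bases and GAAA again. It matched in ISG15 and HERC5. Of all 35116 windows of this length in the table, 3.02% hold a match, and of the 13736 windows of kept genes 2.56% do.

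The windows of ISG15 (chr1:1013247-1013496, + strand) and HERC5 (chr4:88456869-88457118, + strand) are shown because they hold the matches. That of HERC6 (chr4:88378602-88378851, + strand) is shown as the neighbouring ligase without one. Sequences run 5′ to 3′ up to the base before the start, and capitals mark bases in a match to the element on either strand.
ISG15: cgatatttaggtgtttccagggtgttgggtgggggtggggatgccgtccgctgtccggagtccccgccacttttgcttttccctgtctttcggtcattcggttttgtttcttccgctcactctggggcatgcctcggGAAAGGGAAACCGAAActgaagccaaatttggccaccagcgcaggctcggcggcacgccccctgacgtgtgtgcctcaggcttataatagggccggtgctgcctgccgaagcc
HERC5: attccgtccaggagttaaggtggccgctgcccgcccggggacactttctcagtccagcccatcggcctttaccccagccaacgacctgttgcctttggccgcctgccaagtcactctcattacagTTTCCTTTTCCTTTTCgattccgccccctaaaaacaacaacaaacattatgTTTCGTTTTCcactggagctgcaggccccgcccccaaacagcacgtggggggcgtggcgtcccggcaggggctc
HERC6: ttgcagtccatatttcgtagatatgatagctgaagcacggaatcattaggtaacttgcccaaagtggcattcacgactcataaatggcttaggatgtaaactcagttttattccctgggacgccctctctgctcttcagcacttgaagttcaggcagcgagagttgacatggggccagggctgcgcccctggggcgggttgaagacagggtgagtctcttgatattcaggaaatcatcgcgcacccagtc

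In ISG15 the matches GAAAGGGAAA, at positions -113 to -104 from the start, and GAAACCGAAA, at -107 to -98, share 4 bases and form 1 block. HERC5 holds the element in the other orientation. TTTCCTTTTC occurs at -125 to -116 and again at -119 to -110, also sharing 4 bases, and TTTCGTTTTC lies nearer the start, at -74 to -65. The shorter IRF motif AANNGAAA, which each match to the element contains, is found in 20.3% of all windows. It matched 2 times in ISG15 and 4 times in HERC5, and in none of the windows of HERC6 and UBE2L6. The palindromic gamma-activated site TTCNNNGAA (6.57% of all windows) and the forkhead motif TGTTTAC (2.98%) matched in none of the 5 windows. These are matches of letters and not measured binding, and no match says only that the letters are not in this window.

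Other enzymes reported to attach or remove ISG15 did not pass the criterion. Of 6 kept, 0 rose and 0 fell, against 0.726% and 0.454% of all kept genes. A count of 0 among so few is near these shares. Their median log2 difference was -0.35. TRIM25, a ligase that also acts on the RNA sensor DDX58, had the largest difference of them, at 25.0 FPKM (0.514 to 49.5) uninduced and 69.2 FPKM (0.236 to 138) induced. ARIH1, another ligase, was at 22.5 and 28.8 FPKM, and the E2 UBE2E1 at 91.8 and 82.9 FPKM. The proteases USP14 (73.8 and 49.7 FPKM), USP5 (67.5 and 42.4 FPKM) and USP13 (20.6 and 7.52 FPKM) had lower induced values, all with overlapping intervals.

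The relatives of the 6 genes within their families likewise had 0 members that rose or fell. Of all kept genes 0.726% rose and 0.454% fell. A count of 0 is near these shares and does not show that the relatives stayed the same. Among the 9 other E1 enzymes the median log2 difference was -0.38. UBA1, the main ubiquitin E1, was at 132 FPKM (62.6 to 200.4) uninduced and 91.7 FPKM (44.3 to 139) induced, UBA6 at 56.1 and 42.8 FPKM, and SAE1, of the SUMO E1, at 129 and 85.3 FPKM. Of 30 other E2 enzymes the median was -0.27. UBE2L3, the closest relative of UBE2L6, was at 109 FPKM (40.9 to 177) and 75.1 FPKM (28.2 to 122). Highest by the mean of both columns were UBE2E3 (268 and 506 FPKM) and UBE2D3 (196 and 159.8 FPKM). Of the 30, 3 were at least 2-fold lower, where 6.03% of all kept genes were: UBE2C (118 and 29.4 FPKM), UBE2S (208 and 72.5 FPKM) and UBE2T (57.1 and 19.7 FPKM), all with overlapping intervals.

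For 24 other HECT ligases the median was -0.0038. HERC3, which lies beside HERC5 on chromosome 4, was at 80.1 FPKM (23.9 to 136) uninduced and 67.8 FPKM (17.8 to 118) induced. Its row is 1 of 4 kept rows with the same span, and how reads were divided among them is not given. HERC4 was at 130.5 and 46.9 FPKM, TRIP12 at 81.5 and 91.8 FPKM and HERC1 at 6.93 and 15.3 FPKM, each pair with overlapping intervals. Of 44 other USP proteases 39 were kept, with a median of 0.12, and USP22, of the SAGA complex, had the highest mean of both columns, at 79.3 and 61.5 FPKM. Among 14 ubiquitin-like modifiers the median was -0.30. The ubiquitin gene UBB, at 446 FPKM (180.3 to 712) uninduced and 386 FPKM (151 to 621) induced, lay above ISG15 uninduced, with intervals apart. RPS27A, a fusion of ubiquitin with a ribosomal protein, was at 546 and 306 FPKM. Induced, the point value of ISG15, 928 FPKM, exceeded that of UBB, and its interval (442 to 1413) overlapped that of UBB. With the columns scaled to equal sums, where the median of all kept genes was 0.23 in place of 0.05, the HECT median turned to 0.18. The other medians were then -0.16 for the other ISG15 enzymes, -0.19 for E1, -0.07 for E2, 0.31 for USP and -0.10 for modifiers.

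**Figure D3:**
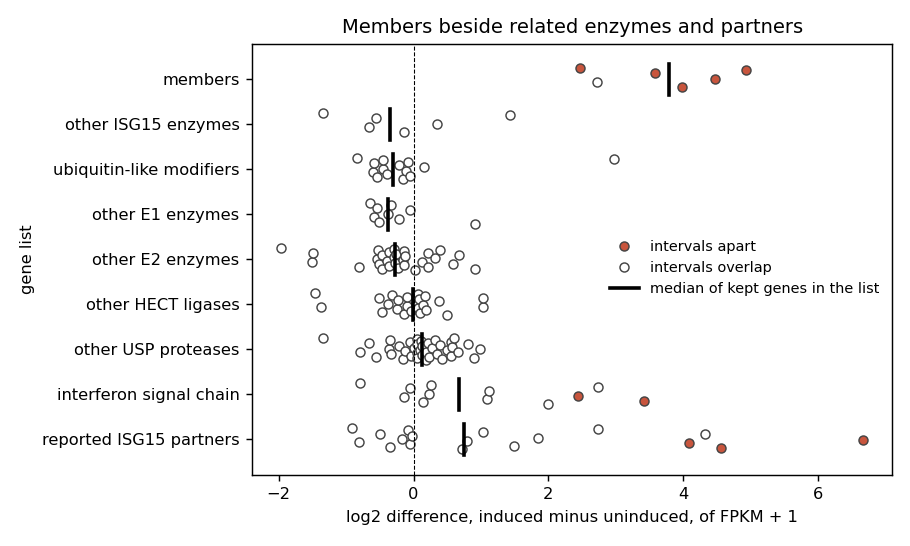
Log2 difference of FPKM + 1, induced minus uninduced, for every kept gene of each list. Filled points have intervals that stand apart, open points overlapping ones, and black bars are list medians. The 6 genes lie between 2.47 and 4.94, and no enzyme of the other E1, E2, HECT and USP lists exceeds 1.04.

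Proteins reported to carry or bind ISG15 were mixed. Of 18 kept, 3 rose and 0 fell, against 0.726% and 0.454% of all kept genes, with a median log2 difference of 0.75. The 3 are interferon-induced themselves: MX1, an antiviral GTPase (1.70 to 275 FPKM), and the RNA sensors IFIH1 (3.13 to 96.4 FPKM) and DDX58 (6.59 to 128 FPKM). The subunits of LFA-1, through which extracellular ISG15 can act, were under the filter. ITGAL was listed at 0 before induction and reached 0.160 FPKM, and ITGB2 was at 0.0693 and 0.167 FPKM.

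In the interferon signal chain 2 of 12 kept genes rose and 0 fell, against 0.726% and 0.454% of all kept genes. The median log2 difference of the chain was 0.68. STAT2, a subunit of the factor that binds the response element, rose from 31.1 FPKM (8.72 to 53.5) to 172 FPKM (65.7 to 279). IRF7, a transcription factor of interferon genes, rose from 6.02 FPKM (0 to 12.4) to 74.0 FPKM (29.3 to 119). The median of the chain was 0.30 after quantile normalization, which put IFNB1 under the filter and left 11 genes. IFNB1, the interferon of fibroblasts, was listed at 0 uninduced and was at 1.17 FPKM (0 to 2.67) induced.

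The nearest kept gene on each side of the 6 was compared. Apart from the ligases themselves, whose rows lie 14005 bases apart, there were 10 such neighbours. Of these 0 rose and 0 fell, against 0.726% and 0.454% of all kept genes. At least 2-fold higher were 4 (9.20% of all kept genes were), and the median log2 difference of the 10 was 0.11. ISG15 lies between HES4, a repressor of the Hairy family (6.85 FPKM uninduced and 34.0 FPKM induced), and AGRN, which encodes agrin (50.1 and 134.6 FPKM). UBE2L6 has TIMM10, of mitochondrial import, on one side (49.7 and 25.1 FPKM) and SERPING1, the C1 inhibitor, on the other (0.546 and 9.40 FPKM).

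On chromosome 4, PPM1K, a mitochondrial phosphatase (6.39 and 26.9 FPKM), lies 93970 bases before HERC6. After HERC5 come 4 kept rows with 1 shared span, HERC3 among them, of which PIGY had the highest mean (91.5 and 80.7 FPKM, intervals 0 to 337 and 0 to 309). The neighbours of UBA7 were FAM212A (3.10 and 2.79 FPKM) and TRAIP (7.93 and 3.89 FPKM). Those of USP18 were PEX26 (14.6 and 11.1 FPKM) and DGCR2 (30.1 and 38.2 FPKM), the latter 363631 bases away. AGRN, PEX26 and DGCR2 are each 1 of 2 kept rows at the same distance from the member. How reads were divided among such rows is not given. All 10 neighbours had overlapping intervals. Within the spans of the 6 genes, UBA7 and HERC5 each hold 1 other row, a microRNA (MIR5193) and AC083829.1, both listed at 0 in both columns.

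**Figure D4:**
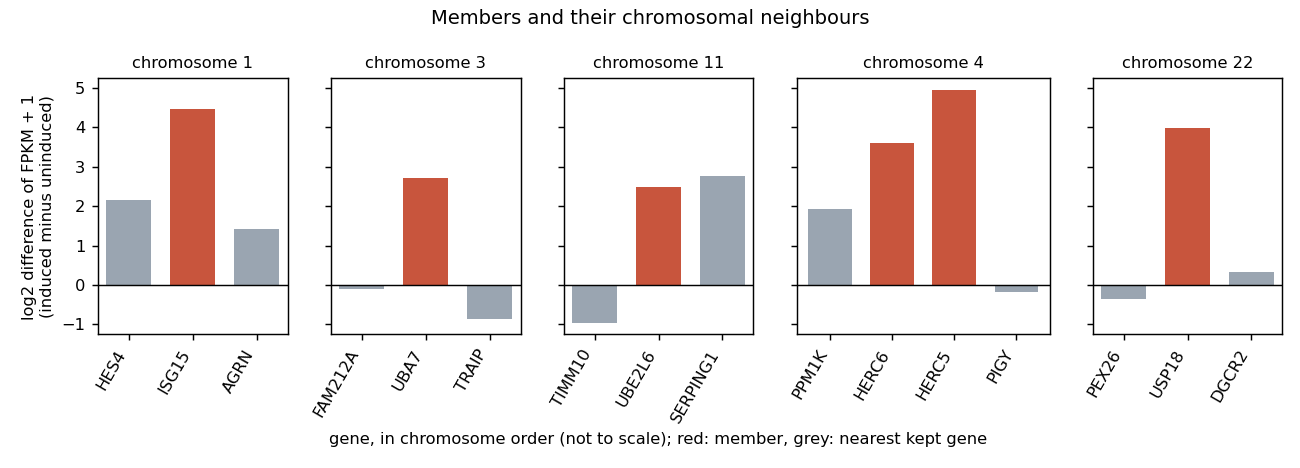
Log2 difference of FPKM + 1, induced minus uninduced, of the 6 genes (red) and the nearest kept gene on each side (grey), in chromosome order and not to scale. The neighbours lie between -0.96 (TIMM10) and 2.75 (SERPING1), and SERPING1 is the one that exceeds the member beside it.

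For each gene, the 3 kept genes nearest to it in the plane of both log2 levels were listed. With only 2 columns, this likeness rests on 1 uninduced and 1 induced value. The genes were picked by both levels, so a difference like that of the gene they are listed for is built into the choice. Nearest to ISG15 were IFITM1 (54.9 and 943 FPKM, distance 0.42), IFI6 (46.1 and 1452 FPKM, distance 0.67) and MDK (56.9 and 533 FPKM, distance 0.92), and all 3 rose. UBA7 was nearly matched by BTN3A1 (10.5 and 75.7 FPKM, distance 0.01), whose narrower intervals stood apart, then by GCLC (10.9 and 73.5 FPKM) and DTX3L (9.58 and 75.8 FPKM). USP18 had NUPR1 (3.68 and 73.9 FPKM, distance 0.01), PARP10 (4.79 and 83.5 FPKM) and HERC6 nearest to it.

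HERC6 lay next to IRF7 (distance 0.20), PARP10 and C1S (6.15 and 60.7 FPKM). HERC5 was closest to FGB, the fibrinogen beta chain (0.289 and 44.2 FPKM, distance 0.24), then MMP10 (0.666 and 39.0 FPKM) and ISG20 (1.09 and 51.0 FPKM). UBE2L6 was nearest to F2RL2 (48.5 and 219 FPKM, distance 0.23), DDX10 (51.2 and 211 FPKM) and SDC2 (61.0 and 214 FPKM), and all 3 of these had overlapping intervals.

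Markers of cell types other than fibroblasts were low in both columns. The 8 immune markers summed to 1.39 FPKM uninduced and 3.52 FPKM induced. PTPRC, the leukocyte surface protein CD45, was at 0.547 and 1.30 FPKM and CD14 at 0.823 and 2.15 FPKM, with overlapping intervals. CD3E, MS4A1, CLEC4C and LILRA4, which define T cells, B cells and plasmacytoid dendritic cells, were listed at 0 in both columns. Of the 4 epithelial and 3 endothelial markers 0 were kept. The 1 row of PECAM1, an endothelial marker, lies on the patch sequence HG183_PATCH, so its value of 0 in both columns is uncertain. Of 3 hepatocyte markers 1 was kept, APOA1, an apolipoprotein, at 0.102 and 1.21 FPKM, a log2 difference of 1.00 with intervals that overlap. ALB was at 0 and 0.0434 FPKM, and TTR was listed at 0 in both columns. The 6 genes together summed to 104.8 FPKM uninduced and 1444 FPKM induced.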

How the data were processed

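RNA was sequenced from 4 samples, 2 per group, from non-stranded TruSeq libraries, per the labels' protocols, so reads of overlapping antisense genes cannot be told apart. TopHat was the aligner and hg19 the build, per the submitters' processing notes. Not given in the sources used here are the TopHat version, the quantifier and any filters. The deposited values are FPKM with a lower and an upper bound, 1 column per group, per the file headers. The level of the bounds is not stated, nor is it stated whether both samples of a group enter its column. In 14173 values of at least 1 FPKM with a lower bound above 0, the bounds were symmetric to within 0.1% of the level in 99.98%. Total reads are unknown. Among 2973 low genes with 1 start site, the most frequent ratio of induced to uninduced values was 0.86, which would give the induced column 1.16 times the depth if it is the ratio of what 1 fragment is worth.

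Column names gave the groups, and 3 value columns of another condition were left out. Starts of gene spans were counted from 1. Of the rows kept, 3 had malformed bounds and were never called. For a symbol with more than 1 row, the row of highest mean FPKM stood for it. Calculations used Python 3.11.15, pandas 2.3.3 and numpy 2.4.6. Coordinates of genes are in hg19 and those of promoters in GRCh38.p14, without conversion. The 6 genes, the lists and the motifs were chosen with earlier results of these data known. Named genes were FOXA2, the 6 genes, list members that rose or fell (otherwise the 2 most abundant), closest relatives, nearest chromosomal neighbours and the 3 genes nearest in level. Other genes, and examples with overlapping intervals, were named after their values had been seen. A few list genes enter the counts and medians but are not reported singly here.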

Additional observations from a re-analysis of the deposited data

How the results depend on the processing

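With 1 value per group, 7 other settings of filter, scaling, pseudocount, row choice and criterion could be run. ISG15, UBE2L6, HERC5, HERC6 and USP18 rose under each of them. Only the equal-sum scaling and the quantile normalization could have changed the calls of these genes. Filter and pseudocount do not enter the bounds compared, and each gene has 1 row. A gene with intervals apart always passes the looser criterion. UBA7 passed under 1 of the 7, that the interval of the difference exclude 0, and then all 6 genes rose. The share of all kept genes that rose was 0.726% as reported, 1.26% under that criterion and 0.163% with no filter on low values, where 63651 rows enter. With equal FPKM sums in both columns, the median over kept genes was 0.23 in place of 0.05 and that of the 6 genes 3.97 in place of 3.79, so that the distance between them stayed at 3.73. After quantile normalization the 6 genes had a median of 3.77, and with a pseudocount of 0.1 one of 4.04. No paired analysis was possible because no column gives a single sample, and leaving out a replicate could not be run for the same reason.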

Other observations

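UBD, which encodes the ubiquitin-like modifier FAT10, was listed at 0 uninduced and was at 6.90 FPKM (upper bound 21.98, lower bound 0) induced, with overlapping intervals. It was the one other modifier of the 14 examined that was at least 2-fold higher, where 9.20% of all kept genes were. UBA6, the E1 that activates FAT10, was at 56.1 and 42.8 FPKM. The symbol UBD has 7 rows in the table, and the span of the row used is wider than 1 gene, and which reads were assigned to it is not stated.

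The other genes that rose, without the 6 described here, had 90 promoter windows under 70 symbols in the RefSeq table. Of these windows 31.1% held the interferon-stimulated response element as searched above and 3.33% the forkhead motif TGTTTAC, beside 2.56% and 2.16% of the windows of all kept genes. The shorter IRF motif AANNGAAA was in 52.2% of them, beside 15.5%, and the gamma-activated site TTCNNNGAA in 17.8%, beside 5.59%. The genes were chosen by the same contrast, some have several windows, and the shares are given as a description with no test.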
